A study of Mus musculus with 12 samples.

Results

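T, Cdx1, Cdx4, Mixl1, Tbx6, Msgn1, Evx1 and Mesp1 are 8 transcription factor genes of the primitive streak and of the posterior mesoderm that comes from it, and their expression was compared between TPS cells and EPS cells. The genes were chosen by name, as known markers of that tissue and with earlier results of these data in view, and all 8 of the 8 were found by gene identifier among the 55401 genes in the files. TPS cells were labelled as mouse totipotent potential stem cells grown on feeders in a medium called VCED on a 4C base, and EPS cells as mouse extended pluripotent stem cells grown on feeders in LCDM. In the study's methods TPS cells are kept in a condition named CPEC, whose components are VPA, which blocks histone deacetylases, EPZ004777, which blocks the methyltransferase DOT1L, CD1530, which activates RARγ, a retinoic acid receptor, and an inhibitor of GSK3, which activates Wnt signalling. LCDM takes its name from LIF, a GSK3 inhibitor, dimethindene and minocycline, so a GSK3 inhibitor is part of both CPEC and LCDM, while the labels do not list what VCED contains. In the study's methods the feeders were mouse embryonic fibroblasts stopped from dividing with mitomycin C. Each cell type had 3 lines, and each line was sequenced as 2 technical replicates, which gave 12 libraries. The labels do not give the origin of the lines, so the p-values measure the spread between these lines and no wider population.

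The primitive streak is the place in the gastrulating embryo where epiblast cells lose their epithelial form and leave as mesoderm or endoderm. Wnt3, Nodal and Bmp4 signals set it up, and Fgf8 drives cells out of it. The protein β-catenin, acting through TCF/LEF factors, switches on T and other streak genes. Cells at the posterior end go on to make presomitic mesoderm under Tbx6 and Msgn1, and Cdx factors give them their position along the body axis. In cultured pluripotent cells, low levels of T and other streak genes are commonly read as a sign of cells that have begun to differentiate.

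Cdx1 was the member that differed most clearly. It averaged 69.8 ± 37.4 CPM in TPS lines and 9.13 ± 2.20 CPM in EPS lines (SD, n = 3 lines each), where CPM is a gene's counts scaled to the library total after TMM correction. Evx1 was also called higher in TPS lines by edgeR's quasi-likelihood test, though close to the threshold and in only 8 of 17 alternative analyses. T and Tbx6 overlapped between the groups, and Mixl1 missed the threshold although its lines did not overlap. In each of the 8 genes the lowest TPS line was line 1, which is the lowest TPS line for 34.5% of all tested genes. For Cdx4, Tbx6, Evx1 and Mesp1, however, line 1 and the next lowest TPS line had overlapping ranges of counting error. The level of TPS line 1 ran from 2.92% of the highest TPS line for Msgn1 to 44.9% for Tbx6.

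Promoter sequence is shown for T, Msgn1 and Mesp1, because these are the members whose promoters held the letters bound by the TCF/LEF partners of β-catenin. RefSeq promoters on GRCm38.p6 were searched over the 250 bases before the start that RefSeq gives each gene, and 6 of the 8 members had an entry, Cdx1 and Mixl1 being without. In capitals are the TCF/LEF letters, CTTTG followed by AA, AT, TA or TT, and the T-box letters, AGGTGT, each searched on both strands. No match of one motif overlapped a match of the other. The T sequence lies at chr17:8434173-8434422 on the plus strand, the Msgn1 sequence at chr12:11208973-11209198 on the minus strand, and the Mesp1 windows at chr7:79793645-79793674 and chr7:79793603-79793632 on the minus strand. The RefSeq start of Msgn1 lies 24 bases inside the GENCODE gene, so its printed sequence was cut to the 226 bases outside it. The RefSeq start of Mesp1 lies 198 bases inside the GENCODE gene, so both Mesp1 windows are upstream of the RefSeq start but within the gene as GENCODE draws it.
T: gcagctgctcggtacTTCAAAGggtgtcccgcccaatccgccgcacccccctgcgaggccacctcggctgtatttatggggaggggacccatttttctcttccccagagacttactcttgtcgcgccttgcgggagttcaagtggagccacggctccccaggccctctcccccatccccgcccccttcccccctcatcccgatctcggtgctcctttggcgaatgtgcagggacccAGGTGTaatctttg
Msgn1: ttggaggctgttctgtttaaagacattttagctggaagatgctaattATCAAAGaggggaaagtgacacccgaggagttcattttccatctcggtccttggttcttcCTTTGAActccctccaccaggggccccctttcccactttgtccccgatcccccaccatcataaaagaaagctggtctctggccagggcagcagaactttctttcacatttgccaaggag
Mesp1, distal window: ccctgctatggTTCAAAGggttcaggccct
Mesp1, proximal window: gctcgagccggCTTTGATatgctgatgaat

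T held 1 TCF/LEF match, 235 bases before its start, and 1 T-box match, 14 bases before it. Msgn1 held 2 TCF/LEF matches, 203 and 143 bases before its RefSeq start, and Mesp1 held 2, at 73 and 31 bases before its RefSeq start. Cdx4 and Evx1 had a T-box match but no TCF/LEF match, Mesp1 had a T-box match as well, and Tbx6 had neither. TCF/LEF letters thus stood in 3 of 6 members, against 14.8% of 32851 promoters of the same length, and T-box letters in 4 of 6, against 11.8%. The letters AGGTCA of the retinoic acid receptor's binding site, present in 14.0% of promoters, were in 0 of the 6. These are matches of letters in a short window and do not show that a factor binds there.

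Of the 8 genes, 5 had enough counts to be tested and 3 did not. The tested members were T, Cdx1, Tbx6, Evx1 and Mixl1. Evx1 and Mixl1 passed the filter through the TPS lines, with 3 TPS lines past its cutoff but only 2 and 1 EPS lines, so for these a count of calls is not evenly open to both directions. Cdx4, Msgn1 and Mesp1 passed the cutoff in 2 TPS lines and 0 EPS lines. Among the tested members 2 were called higher in TPS lines and 0 lower, where the background over all 17468 tested genes was 14.4% higher, 7.34% lower and 21.7% in either direction. In 3 of the 5 every TPS line was above every EPS line, which held for 23.6% of all tested genes, and in 0 was every TPS line below, against 19.1%. Without the filter on low counts edgeR gave all 8 a value and called 4 higher (Cdx1, Evx1, Mixl1 and Msgn1), where it called 10.1% of all genes with a count higher. That share is over 32608 genes, however few their counts. As Evx1, Mixl1 and Msgn1 had counts mainly in TPS lines, 4 of 8 cannot be weighed against it.

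**Figure D1:**
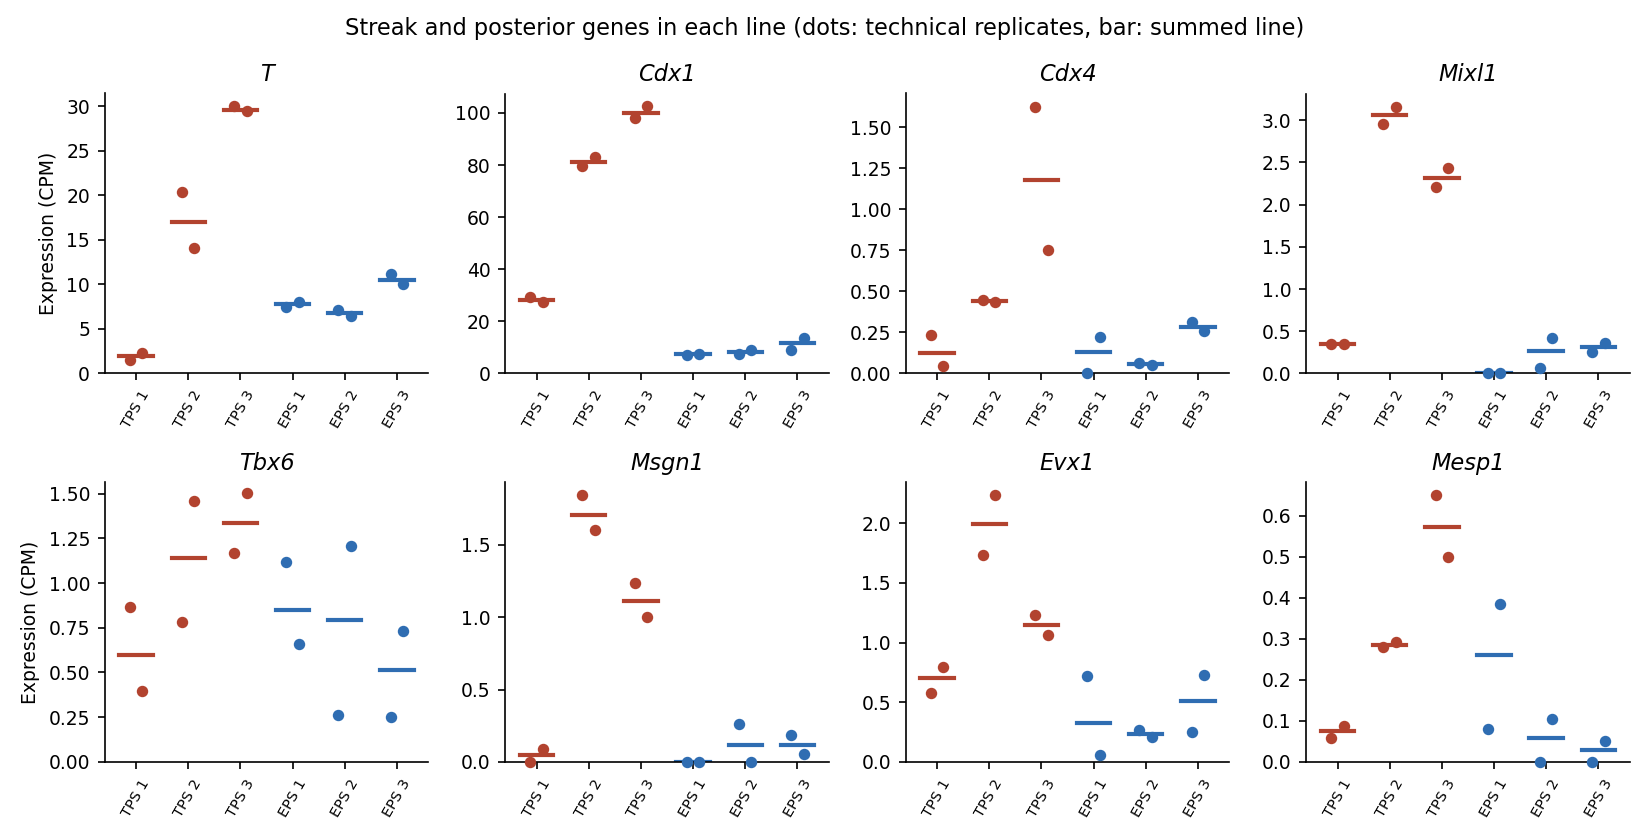
Expression in CPM (vertical axis, a separate scale for each gene) of the 8 genes in the 3 TPS and 3 EPS lines, with dots for the technical replicates and bars for the summed line. TPS line 1 is the lowest TPS bar in every panel, and for T it lies below all 3 EPS lines.

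T, also called Brachyury, is the T-box factor that defines nascent mesoderm and is needed for the posterior body axis (gene ENSMUSG00000062327.10, chr17:8434423-8442496, plus strand). It measured 1.95, 17.0 and 29.6 CPM in TPS lines 1, 2 and 3 and 7.83, 6.80 and 10.5 CPM in EPS lines 1, 2 and 3. TPS lines 2 and 3 were thus above every EPS line and TPS line 1 below every EPS line. The 78 counts in TPS line 1 give a 95% exact Poisson interval of 1.54 to 2.43 CPM, and that of the lowest EPS line was 5.95 to 7.73 CPM, where both cover counting error only. The technical replicates showed the same order, with 27 and 51 counts in TPS line 1, 365 and 290 in line 2 and 462 and 471 in line 3, beside 94 to 193 counts in the EPS libraries. The group means were 16.2 ± 13.9 and 8.39 ± 1.93 CPM (SD, n = 3 lines each), and the log2 fold change of 0.95 (SE 0.764) was not called by edgeR (adjusted p = 0.407). Without TPS line 1 the log2 fold change became 1.47 and was called (adjusted p = 0.0296), without TPS line 2 it was 0.91 (adjusted p = 0.518), and without TPS line 3 it was 0.17 (adjusted p = 0.91). The difference between the groups was therefore smaller than the spread among the TPS lines.

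Tbx6 is the T-box factor that directs presomitic cells towards mesoderm and away from a neural fate (ENSMUSG00000030699.16, chr7:126781483-126785560, plus strand). It measured 0.600, 1.14 and 1.33 CPM in the TPS lines and 0.849, 0.795 and 0.512 CPM in the EPS lines, from 18 to 44 counts per line. The groups overlapped, with TPS line 1 below EPS lines 1 and 2. The log2 fold change was 0.51 (SE 0.446), which edgeR did not call (adjusted p = 0.447), and Tbx6 was called in 0 of 17 alternative analyses, where its log2 fold change ran from 0.27 to 0.82. Its SE was close to the size of the fold change, so these lines do not settle whether Tbx6 differs.

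Cdx1 and Cdx4 belong to the caudal family of homeobox factors, which pattern the posterior axis by setting Hox expression and respond to Wnt, FGF and retinoic acid signals. Cdx1 (ENSMUSG00000024619.8, chr18:61018862-61036199, minus strand) measured 28.0, 81.3 and 100.1 CPM in the TPS lines and 7.44, 8.33 and 11.6 CPM in the EPS lines. Every TPS library had more than every EPS library, with 506 to 1713 counts against 89 to 264. The mean was 7.65-fold higher in TPS lines, and the log2 fold change of 2.93 (SE 0.457) was called by edgeR (adjusted p = 0.00632). Cdx1 was called in all 18 alternative analyses, with log2 fold changes from 2.58 to 3.31. TPS line 1 was nonetheless at 28.0% of the level in TPS line 3. Per kilobase of exon, Cdx1 had the highest level of the 8 genes in TPS lines, 39.9 CPM per kilobase, followed by T at 6.99 and Msgn1 at 1.56. In EPS lines Cdx1 and T were near each other, at 5.22 and 3.62 CPM per kilobase, and the highest of the others was Tbx6 at 0.398.

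Cdx4 (ENSMUSG00000031326.2, chrX:103321398-103330592, plus strand), which acts with the other Cdx factors in the tail bud, was close to the limit of detection. It measured 0.125, 0.441 and 1.18 CPM in the TPS lines and 0.131, 0.0589 and 0.285 CPM in the EPS lines, from 5, 17 and 37 counts and 4, 2 and 10 counts. TPS lines 2 and 3 were above every EPS line, and TPS line 1 lay among the EPS lines. Fitted without the filter, its log2 fold change was 1.80 (edgeR, SE 0.804, adjusted p = 0.156).

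Cdx2 is not among the 8 genes, but it is the remaining member of the Cdx family and serves both trophectoderm and posterior mesoderm. It averaged 4.57 ± 4.42 CPM in TPS lines, from 0.675 to 9.37, and 0.239 ± 0.276 CPM in EPS lines (SD, n = 3 lines each). Its log2 fold change of 4.21 (SE 1.22) was called by edgeR (adjusted p = 0.0448), and in the 6 fits that left out a line the log2 fold change was 3.13 to 5.58, with the call lost in 4.

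Mixl1 and Evx1 are homeobox genes of the streak, Mixl1 in cells about to become mesendoderm and Evx1 at the posterior end. Mixl1 (ENSMUSG00000026497.7, chr1:180693043-180697034, minus strand) measured 0.350, 3.06 and 2.32 CPM in the TPS lines and 0, 0.265 and 0.313 CPM in the EPS lines, from 14, 118 and 73 counts and 0, 9 and 11 counts. No TPS line overlapped the EPS lines, but TPS line 1 stood just above EPS line 3, and the intervals of both, 0.191 to 0.587 and 0.156 to 0.560 CPM, overlapped. The log2 fold change of 3.26 (SE 1.05) missed the threshold in edgeR (adjusted p = 0.0628), whereas DESeq2 on the same lines gave 3.28 and called it (adjusted p = 0.00308). Of 14 alternative analyses that gave it a value, 5 called Mixl1, and all 14 put it higher in TPS lines.

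Evx1 (ENSMUSG00000005503.8, chr6:52313498-52318378, plus strand) measured 0.700, 2.00 and 1.14 CPM in the TPS lines and 0.326, 0.235 and 0.512 CPM in the EPS lines, from 28, 77 and 36 counts and 10, 8 and 18 counts. The lines did not overlap, but the libraries did, with 10 to 46 counts in TPS libraries and 1 to 14 in EPS libraries. The log2 fold change of 1.82 (SE 0.537) was called by edgeR with an adjusted p of 0.0472, close to the threshold, and 8 of 17 alternative analyses called it. It was not called with limma-voom (adjusted p = 0.0661) or with technical replicate 1 or 2 alone (0.12 and 0.114). Of the 6 fits that left out a line, 1 kept the call, the fit without TPS line 1 (adjusted p = 0.0455). The antisense gene Evx1os (chr6:52308389-52314832, minus strand) overlaps Evx1 and had 1 to 10 counts in TPS libraries and 0 to 4 in EPS libraries. Whether strand was used in counting is not given in the sources used here, so the reads of both genes may not be fully separated.

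Msgn1 and Mesp1 are basic helix-loop-helix factors of later steps, Msgn1 in presomitic mesoderm and Mesp1 in the cells that leave the streak for the heart and head mesoderm. Msgn1 (ENSMUSG00000047002.2, chr12:11208360-11208972, minus strand) measured 0.050, 1.71 and 1.11 CPM in the TPS lines and 0, 0.118 and 0.114 CPM in the EPS lines, from 2, 66 and 35 counts and 0, 4 and 4 counts. TPS lines 2 and 3 were far above the EPS lines, and TPS line 1 was below EPS lines 2 and 3, a difference of 2 against 4 counts that lies within counting error. No count in EPS line 1 means a level not detected at this depth, where 3 counts correspond to at most 0.239 CPM in an EPS library. Without the filter the log2 fold change was 3.52 and called by edgeR (adjusted p = 0.0150), and without TPS line 1 it was 4.10 (adjusted p = 0.0247). In the 3 fits without an EPS line it was not called (adjusted p = 0.14 to 0.17), and without TPS line 2 or 3 it had too few counts for a test.

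Mesp1 (ENSMUSG00000030544.5, chr7:79792241-79793788, minus strand) had the fewest counts of the 8 genes over the TPS lines together. It measured 0.0750, 0.285 and 0.572 CPM in the TPS lines and 0.261, 0.0589 and 0.0285 CPM in the EPS lines, from 3, 11 and 18 counts and 8, 2 and 1 counts. The groups overlapped, with EPS line 1 above TPS line 1 and close to TPS line 2. The log2 fold change without the filter was 1.39 (edgeR, adjusted p = 0.377), and Mesp1 was called in 0 of 7 alternative analyses that gave it a value.

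**Figure D2:**
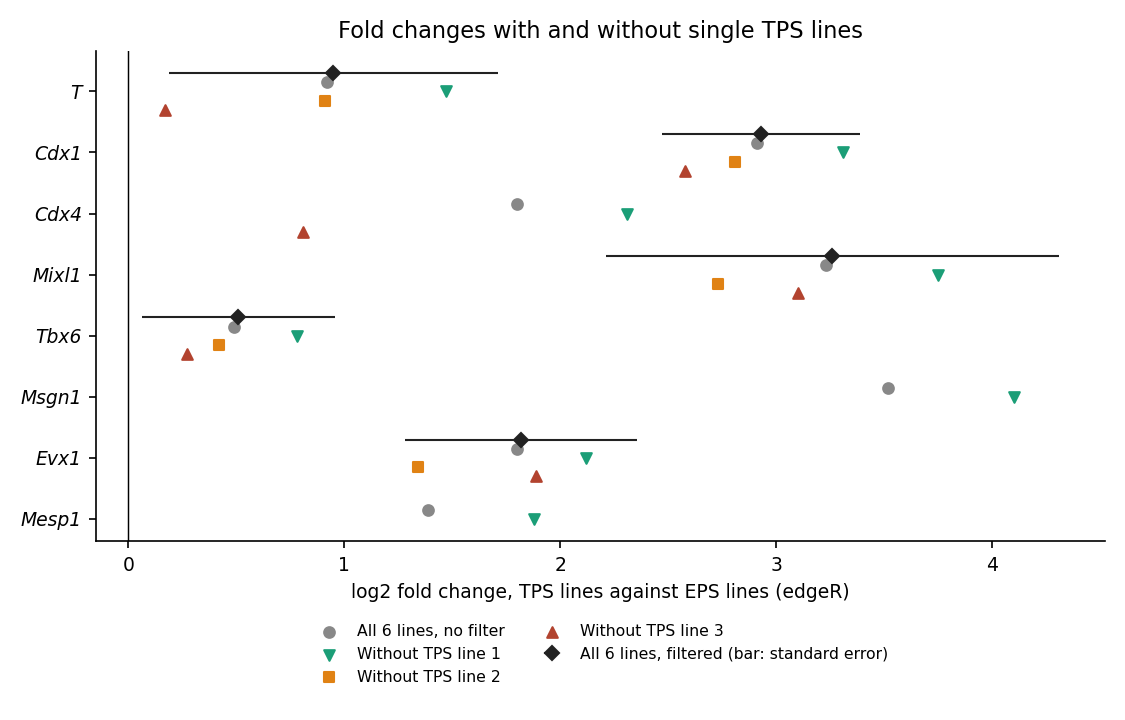
Log2 fold change of each gene, TPS lines against EPS lines (horizontal axis), from edgeR with all 6 lines, with no filter on low counts, and without each TPS line in turn. Genes without a black diamond had too few counts to be tested. The values for T run from 0.17 to 1.47, while those for Cdx1 stay at 2.58 or above.

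The members varied together among the TPS lines. All 8 were lowest in TPS line 1, while the highest was TPS line 3 in 5 genes (T, Cdx1, Cdx4, Tbx6 and Mesp1) and TPS line 2 in 3 (Mixl1, Msgn1 and Evx1). TPS line 1 is the lowest TPS line for 34.5% of all tested genes. That share is for genes taken singly, and the 8 genes are not independent of each other, so no p is given for their shared order. The Poisson intervals of TPS line 1 and the next lowest TPS line overlapped for Cdx4, Tbx6, Evx1 and Mesp1. They did not overlap for T, Cdx1, Mixl1 and Msgn1. For Tbx6, technical replicate 1 put TPS line 1 above line 2 (0.868 and 0.782 CPM). Technical replicate 2 put it below (0.399 and 1.46 CPM). The size of the gap between TPS line 1 and the highest TPS line differed by gene. As a percentage of the highest TPS line, line 1 held 2.92% for Msgn1, 6.57% for T, 10.6% for Cdx4, 11.4% for Mixl1 and 13.1% for Mesp1, but 28.0% for Cdx1, 35.1% for Evx1 and 44.9% for Tbx6. The lowest EPS line varied by gene, as it was line 1 in 3 genes, line 2 in 3 and line 3 in 2, where the shares over all tested genes were 36.5%, 31.1% and 32.5%. The highest EPS line was line 3 in 5 genes (T, Cdx1, Cdx4, Mixl1 and Evx1). Shares over all tested genes are not given for the highest TPS or EPS line, so these counts cannot be weighed.

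**Figure D3:**
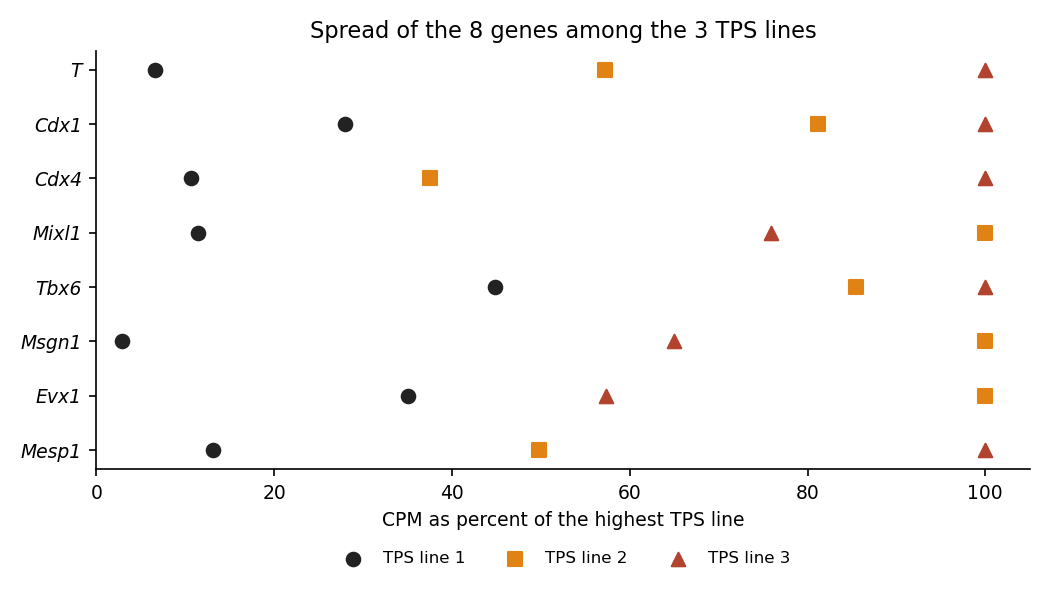
Level of each gene in the 3 TPS lines as a percentage of its highest TPS line (horizontal axis). TPS line 1 lies between 2.92% and 44.9% for all 8 genes.

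Across the 6 lines, the deviations of log2(CPM + 1) from the group means were positively correlated in all 28 pairs of the 8 genes, with a lowest Pearson r of 0.25, a median of 0.76 and a highest of 0.99 for Mixl1 and Msgn1. T and Cdx1 had an r of 0.98. These values describe 6 lines that share their libraries, so no p is given. All 8 genes were lowest in TPS line 1 among the TPS lines, and the correlations were not computed without it. That shared order by itself favours positive values. The share of positive pairs over all tested genes is not given here, so 28 of 28 cannot be weighed against it. In bulk RNA, fewer cells that express a gene and less RNA of it per cell cannot be told apart.

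Without TPS line 1 all 8 members passed the filter, and edgeR called 5 of them higher, namely T, Cdx1, Mixl1, Msgn1 and Evx1. In that fit 9.67% of all tested genes were called higher. With all lines kept, Cdx4, Msgn1 and Mesp1 passed the filter's cutoff in 2 TPS lines and 0 EPS lines, and Mixl1 in only 1 EPS line. For these members a count of calls is not evenly open to both directions, so 5 of 8 cannot be weighed against the 9.67%. The line left out was the one already seen to be lowest in all 8 genes, and each of the other 5 fits that left out a line called 1 member higher. In the filtered edgeR fit, T and Mixl1 were not called with TPS line 1 and were called without it, while Cdx1 was called either way.

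Other markers also set TPS line 1 apart. The summed level of 16 fibroblast genes, which feeder cells express, was 6447, 3567 and 3767 CPM in TPS lines 1, 2 and 3 and 343, 1327 and 1424 CPM in EPS lines 1, 2 and 3. Of the 16, 11 were called higher in TPS lines and 0 lower, and the median log2 fold change was 2.05 beside -0.00 over all tested genes, and none of the 16 was lowest in TPS line 1. Col1a1, a chain of type I collagen, was the most abundant, at 1830 CPM in TPS lines and 297 CPM in EPS lines. Among TPS lines, the line with the most fibroblast RNA had the least streak RNA, while between groups both sums were higher in TPS lines. The 8 streak genes together summed to 31.9, 107 and 137 CPM in TPS lines 1, 2 and 3, while the EPS lines had 16.8, 16.7 and 23.9 CPM. The part of feeder RNA in these values was not tested.

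**Figure D4:**
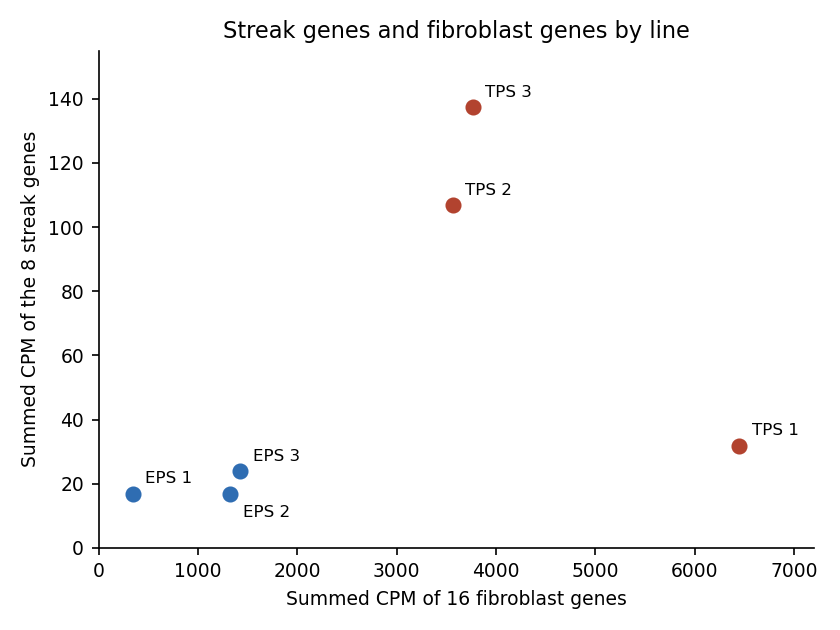
Summed CPM of the 8 streak genes (vertical axis) against summed CPM of 16 fibroblast genes (horizontal axis) in the 6 lines. TPS line 1 has the highest fibroblast sum, 6447 CPM, and the lowest streak sum of the TPS lines, 31.9 CPM.

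The labelled cell types were checked by their markers. All 8 totipotency markers, among them Zscan4c of the 2-cell stage, were called higher in TPS lines, with a summed level of 178 to 228 CPM against at most 0.142 CPM in an EPS line. These include TPS line 1, at 187 CPM, so TPS line 1 did not lack the genes that mark its label. Of 8 pluripotency markers 4 were lower in TPS lines and 0 higher, and their sum was 1953 to 2426 CPM in TPS lines and 4119 to 5051 CPM in EPS lines. Trophectoderm markers summed to 144, 602 and 219 CPM in TPS lines 1 to 3 and to 103 to 178 CPM in EPS lines, so TPS line 1 lay within the EPS range, with 2 of 7 tested called higher (Cdx2 and Gata3) and 0 lower, and 6 of the 7 were lowest in TPS line 1. Of 8 primitive endoderm markers 4 were higher and 1 lower, while their sum was 106 to 142 CPM in TPS lines and 138 to 194 CPM in EPS lines, and of 6 tested neural markers 1 was higher and 0 lower.

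The counts of calls in the lists that follow are to be read against the shares over all tested genes, 14.4% higher and 7.34% lower, and a median log2 fold change of -0.00. Of the 39 genes called in these lists, 24 lost the call in at least 1 of the 6 fits that left out a line, where fewer of all genes were called as well (8.98% to 12.5% higher). Hhex and Foxc2 lost it in 6, Fgf5, Sfrp2, Snai1, Foxc1, Foxf1 and Nkd1 in 5, and Tdgf1, Cdx2, Hand2, Pdgfra, Bmp2, Lgr5, Tcf7l1 and Cyp26b1 in 4. Wnt3, Fgf17, Pcdh8 and Tbx4 lost it in 3, Kdr, Meox1 and Tbx21 in 2, and Cyp26a1 in 1. Over these fits the log2 fold change was 0.71 to 0.89 for Hhex, 1.25 to 1.88 for Snai1 and -1.13 to -0.80 for Tdgf1. It was 1.20 to 2.58 for Nkd1, 3.43 to 5.25 for Meox1, 2.47 to 3.72 for Pcdh8 and 3.48 to 5.20 for Cyp26a1. For Tbx21 it was 3.30 to 5.38, for Fgf17 -2.77 to -1.73 and for Sfrp2 1.33 to 2.25.

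Genes for signals of the streak differed between the groups in both directions. Of 14 genes for streak signals, 13 were tested, and 4 rose and 3 fell in TPS lines, and their median log2 fold change was 1.21. Their sum went the other way, at 838 to 1004 CPM in TPS lines and 1129 to 1794 CPM in EPS lines. Tdgf1 makes up much of it, with 579 CPM in TPS lines and 1094 CPM in EPS lines on average. Wnt8a, a Wnt ligand of the early streak, averaged 23.0 ± 20.9 CPM in TPS lines and 0.412 ± 0.428 CPM in EPS lines (SD, n = 3 lines each), and its log2 fold change was 5.76 (edgeR, SE 1.10, adjusted p = 0.0119), with 4.71 to 6.83 in the fits that left out a line. Fgf8, which drives cells out of the streak, averaged 6.52 CPM against 0.457 CPM, a log2 fold change of 3.82 (SE 0.711, adjusted p = 0.0109). Wnt3, the ligand needed to start the streak, averaged 2.97 CPM against 0.497 CPM, a log2 fold change of 2.57 (SE 0.568, adjusted p = 0.0187). Fgf5, a gene of the epiblast that follows implantation, had the highest adjusted p of the called signals (log2 fold change 2.11, adjusted p = 0.0495). Those that fell were Fgf17 (-2.12, adjusted p = 0.0303), Fgf4, the FGF of pluripotent cells (-1.40, adjusted p = 0.00701), and Tdgf1, the Nodal co-receptor (-0.92, adjusted p = 0.0239). Nodal itself, named after its values were seen, measured 67.9 CPM in TPS lines and 52.4 CPM in EPS lines and was not called (log2 fold change 0.37, adjusted p = 0.282). Of these signals, 9 of 13 were lowest in TPS line 1.

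Inhibitors of these signals, listed together with the retinoic acid enzyme Cyp26a1, also moved in both directions. Cyp26a1 inhibits none of these signals and is also counted in the list of retinoic acid targets. Of 9 genes, 8 were tested, and 3 were higher and 1 lower, with a median log2 fold change of 1.56. Their sum was lower in TPS lines, at 181.3 to 252.5 CPM against 287.4 to 603.2 CPM in EPS lines, where Sfrp1 and Lefty2 make up much of it. Dkk1, a Wnt inhibitor that Wnt itself induces, averaged 2.46 CPM in TPS lines and was at or under 3 counts in every EPS library, so it was at least 10.3-fold higher (edgeR, adjusted p = 0.00453). Cyp26a1, which breaks down retinoic acid at the posterior end, had a log2 fold change of 4.39 (adjusted p = 0.015), and Sfrp2, a secreted Wnt antagonist, of 1.61 (adjusted p = 0.0337). Its relative Sfrp1 went the other way, from 210 CPM in EPS lines to 29.6 CPM in TPS lines (log2 fold change -2.83, adjusted p = 0.00194). The part of the higher fibroblast genes in the inhibitor list was not tested.

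Other transcription factors of the streak and its anterior end were called higher in 4 of 12 tested (15 listed) and lower in 0, with a median log2 fold change of 0.38. Besides Cdx2 these were Sox17, an endoderm factor (2.69, adjusted p = 0.0123), Snai1, which drives the loss of epithelial form (1.63, adjusted p = 0.0321), and Hhex of the anterior endoderm (0.82, adjusted p = 0.0402). Eomes and Gsc, which mark the early and the anterior streak and were named after their values were seen, were not called and had log2 fold changes of -0.25 (adjusted p = 0.627) and -1.15 (adjusted p = 0.14). In this list 10 of 12 tested genes were lowest in TPS line 1. Fibroblast genes were higher in TPS lines as well, and their part in this list was not tested.

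Of the presomitic genes that follow Tbx6 and Msgn1, 4 of 13 tested (16 listed) were higher and 1 was lower, with a median log2 fold change of 0.76. Meox1 of the somites had a log2 fold change of 4.17 (adjusted p = 0.0201), Pcdh8, an adhesion protein of forming somites, of 3.30 (adjusted p = 0.0178), Foxc1 of 2.41 (adjusted p = 0.0321) and Foxc2 of 2.03 (adjusted p = 0.0489). Lfng, the Notch modifier of the segmentation clock, was lower (-1.23, adjusted p = 0.0146). Foxc1, Foxc2 and Meox1 are also expressed in other mesenchyme, and the part of the higher fibroblast genes in this list was not tested.

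Among genes of lateral and extraembryonic mesoderm, 6 of 13 tested (14 listed) were higher and 0 lower, with a median log2 fold change of 2.02. Those with the largest changes were Bmp2 (4.00, adjusted p = 0.0379), whose log2 fold change was 1.97 and not called without TPS line 2, Pdgfra (2.45, adjusted p = 0.0238), Kdr, the VEGF receptor of blood and vessel precursors (2.27, adjusted p = 0.0158), and Hand2 (2.14, adjusted p = 0.0191). Fibroblast genes were higher in the same lines, and Pdgfra is a gene that fibroblasts also express. Their part in this list was not tested.

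**Figure D5:**
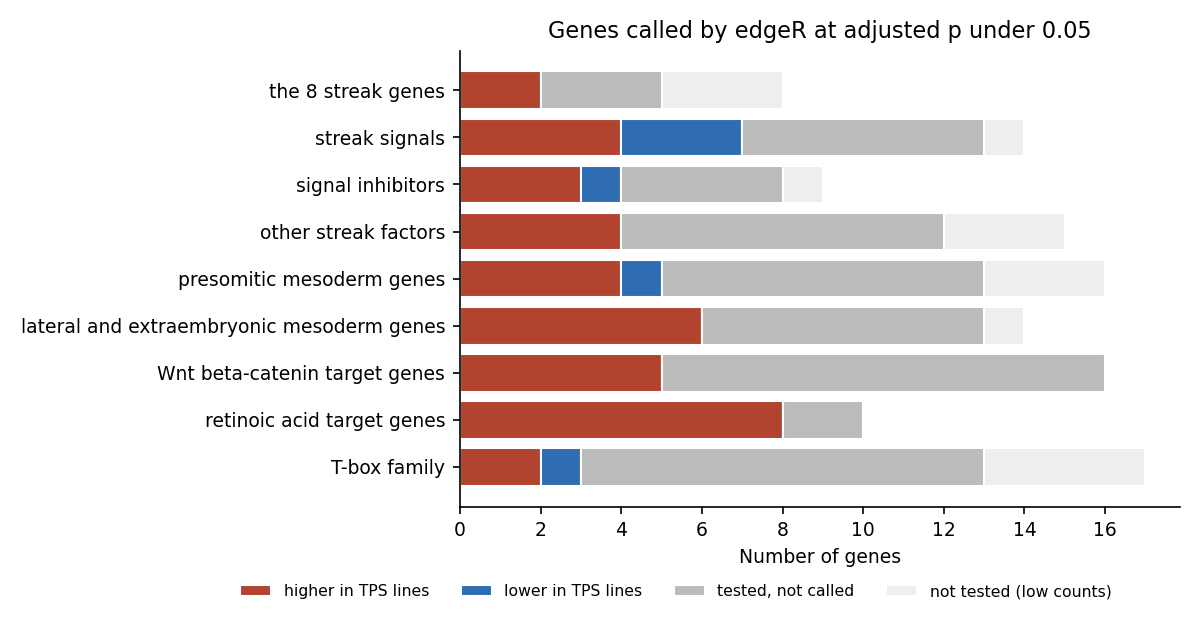
Number of genes in each list (horizontal axis) that edgeR called higher or lower in TPS lines (adjusted p under 0.05), that were tested and not called, or that had too few counts to be tested. Of the lists drawn here, retinoic acid targets have the highest share called, 8 of 10, and the 8 streak genes have 2 called and 3 not tested.

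Of 16 Wnt/β-catenin target genes, all tested, 5 were higher in TPS lines and 0 lower, with a log2 fold change of 0.13 at the median and summed levels of 950 to 1038 CPM in TPS lines and 842 to 1048 CPM in EPS lines. Ctnnb1, the gene of β-catenin itself, makes up much of these sums, with 568.5 CPM in TPS lines and 509.8 CPM in EPS lines on average. Dkk1 and Cdx2 were 2 of the 5, with Nkd1 (2.20, adjusted p = 0.0357), Tcf7l1 (0.77, adjusted p = 0.0255), which is outside the rule for named genes and completes the 5, and Lgr5, which stayed at or under 3 counts in all EPS libraries and was at least 2.27-fold higher (adjusted p = 0.0223). The common read-outs of Wnt activity Axin2 and Sp5, named after their values were seen, were not called, with log2 fold changes of -0.49 (adjusted p = 0.22) and 0.10 (adjusted p = 0.905). Of the 16, 12 were lowest in TPS line 1. T, Cdx1 and Cdx4, which also respond to Wnt signals, were not on this list.

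Retinoic acid targets were called higher in 8 of 10 and lower in 0, with a median log2 fold change of 3.66 and summed levels of 160 to 170 CPM in TPS lines against 22.5 to 40.3 CPM in EPS lines. Stra8, a meiotic gene under retinoic acid control, averaged 62.0 CPM in TPS lines and 0.246 CPM in EPS lines (log2 fold change 7.98, adjusted p = 0.000152). Hoxb1 (6.26, adjusted p = 0.0152, with 5.67 to 9.17 in the fits that left out a line) was likewise higher, and Rarb, the receptor gene that retinoic acid induces, had 0 counts in every EPS library, which makes it at least 4.19-fold higher (adjusted p = 0.00368). The retinoic acid sum did not single out TPS line 1, which had the highest value of the 3 TPS lines, although Stra8 makes up a large part of that sum and 5 of the 10 genes were lowest in TPS line 1. Cdx1, itself known as a retinoic acid target, was not on that list.

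In the T-box family, 13 of 17 genes were tested, 2 were higher and 1 lower, near the shares over all tested genes, with a median log2 fold change of 0.95. The sum of the 17 was lower in TPS lines, at 252 to 307 CPM against 394 to 517 CPM in EPS lines, and Mga and Tbx3 make up much of it. Tbx21, a factor of T cells (3.89, adjusted p = 0.0178), and Tbx4 of the limb and allantois (2.24, adjusted p = 0.0225) were higher, and Tbx3, which is part of the network of mouse pluripotent cells, was lower (-1.27, adjusted p = 0.00622). T and Tbx6 were thus among the 10 tested T-box genes that were not called.

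The genes whose levels over the 6 lines were most like a member's were found by Pearson's r of log2(CPM + 1), as a description. For T they were Parp10 (r = 0.978), Ube2j2 (0.968) and Gm5648 (0.965), and none of these was called between the groups. For Cdx1 they were Oprd1 (0.998), Ap1s3 (0.997) and 4930523C07Rik (0.997), of which Oprd1 and 4930523C07Rik were called higher. For Mixl1 they were Gpr20 (0.994), Ece1 (0.992) and Cldn9 (0.992), for Evx1 they were Ptn (0.998), Zswim5 (0.996) and Cx3cl1 (0.996), and for Tbx6 they were Coa6 (0.985), Rab5if (0.982) and Romo1 (0.981). Over the deviations of the 12 libraries from their group means, T was most like Bex2 (0.989), Zscan4a (0.974) and Gm47985 (0.973), and Cdx1 most like Cdc42ep4 (0.972), Rrp8 (0.965) and Jpt2 (0.963). Zscan4a belongs to a cluster of near-identical copies among which reads may be split. With so few points and so many genes, values this high are easily reached.

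Library totals ran from 14652746 to 21821707 counts in TPS libraries and from 13676051 to 20077288 in EPS libraries. TPS line 1 was the deepest of the 6 lines, with a total of 38466294 counts, and TPS line 3 the shallowest, with 29877215.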

How the data were processed

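Polyadenylated RNA of 3 TPS and 3 EPS lines was sequenced in 2 technical replicates. The submitters' processing notes name fastp 0.19.7 and STAR 2.7.3a, and the authors deposited unnormalised counts of reads per gene on GRCm38. The counting tool, its annotation, the use of strand and the treatment of reads that map to several places are not given in the sources used here. Technical replicates were summed by line. Of 55401 identifiers, 55141 matched GENCODE M21 without the version.

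Lines were compared by edgeR 4.0.16 (R 4.3.3), quasi-likelihood test with TMM factors, on the 17468 genes that passed filterByExpr (minimum count 10, total 15), with Benjamini-Hochberg adjustment over all of them and a threshold of 0.05. SE is the log2 fold change divided by the square root of F. Members under the filter are given from the fit without it. Poisson intervals cover counting error only, as does the floor of 3 counts, because the libraries carried no stated molecular identifiers and reads can be copies of a molecule.

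The members and the lists of other genes were chosen with earlier results of these data known. Named list genes are up to 4 called genes in each direction with the largest fold change. Genes most like a member are the 3 with the highest Pearson r. Alternatives were DESeq2 1.42.0, limma-voom (limma 3.58.1), other size factors and filters, single technical replicates, 12 separate libraries, a replicate block, a stricter threshold and leaving out each line.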

Additional observations from a re-analysis of the deposited data

How the results depend on the processing

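Cdx1 was called higher in TPS lines in all 18 alternatives and T, Tbx6 and Mesp1 in 1, 0 and 0, and no member changed its direction in any alternative that gave it a value. Cdx4, Msgn1 and Mesp1 were under the filter's cutoff in TPS line 1 and in all EPS lines, so their values rest on few counts. The cause of the changes below was not tested.

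The log2 fold change of Evx1 lost its call with limma-voom (1.73), with technical replicate 1 alone (1.54), with technical replicate 2 alone (2.02) and with the replicate block (1.75). Mixl1 gained a call with DESeq2 on the 6 lines (3.28), DESeq2 on the 12 libraries (3.34), no filter on low counts (3.23) and the replicate block (3.44), and Cdx4 with DESeq2 on the 12 libraries (1.91). Leaving out each line gave log2 fold changes of 0.17 to 1.47 for T, 2.68 to 3.76 for Mixl1, 2.98 to 4.10 for Msgn1 and 1.34 to 2.17 for Evx1. Without TPS line 1, T, Mixl1, Msgn1 and Evx1 were called. Msgn1 was not called in the 3 fits without an EPS line and had too few counts for a test without TPS line 2 or 3. Evx1 was not called in the other 5 fits.

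The count of members called higher, 2, became 5 with DESeq2 on the 12 libraries, 4 with DESeq2 on the 6 lines and with no filter, and 1 with a filter of 1 CPM in 3 lines, limma-voom, either technical replicate alone or a threshold of 0.01. With the replicate block it was 2. Over all genes fitted, the share called higher was 10.1% with no filter and 14.1% with the 1 CPM filter. It was 13.9% with limma-voom, 12.8% and 12.9% with technical replicate 1 and 2 alone, and 9.81% with the replicate block. DESeq2 on the 12 libraries counts technical replicates as if they were lines, and it called 24.1% of all genes higher, against 15.8% for DESeq2 on the 6 lines. The sources used here do not say whether same-numbered lines are related, and deviations of same-numbered lines correlated at 0.0239, -0.139 and 0.0185.

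In the lists, DESeq2 on the 12 libraries called 4 T-box genes higher and 3 lower, 3 Wnt targets lower, 1 lateral gene lower, 1 other streak factor lower, 8 presomitic genes higher, and 5 inhibitors higher and 3 lower. DESeq2 on the 6 lines called 1 Wnt target lower and 5 inhibitors higher and 2 lower. edgeR on the 12 libraries called 3 T-box genes, 3 Wnt targets, 1 lateral gene, 1 other streak factor and 3 inhibitors lower. No filter gave 2 T-box genes lower, 1 Wnt target lower, and 5 inhibitors higher and 2 lower. The 1 CPM filter gave 1 T-box gene, 2 Wnt targets, 1 presomitic gene and 1 inhibitor higher, and limma-voom 3 Wnt targets higher. The replicate block gave 1 T-box gene, 2 Wnt targets, 2 lateral genes and 2 presomitic genes higher. Technical replicate 1 alone gave 0 T-box genes, 1 Wnt target, 2 presomitic genes and 1 inhibitor higher, and technical replicate 2 alone 2 presomitic genes higher.

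Over the fits that left out a line, calls ranged as follows. T-box genes had 0 to 3 higher and 1 to 2 lower, Wnt targets 1 to 4 higher and 0 to 1 lower, lateral genes 1 to 5 higher and 0 to 1 lower, members 1 to 5 higher, other streak factors 1 to 2 higher, presomitic genes 1 to 5 higher, inhibitors 1 to 4 higher and 1 to 2 lower, and signals 2 to 5 higher and 1 to 3 lower. Of 39 called list genes, 15 were called in each of these fits.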
